A study of Mus musculus with 12 samples.

Results

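Neurons pass signals by fusing transmitter-filled vesicles with their membrane, and 40 mouse genes of that machinery and of the receptors that answer it are described here in whole neural retina. The list was drawn up by name, from vesicle proteins through fusion and active zone proteins, calcium channel subunits and glutamate transporters to receptors and postsynaptic scaffolds. Its members were found as the probe sets whose only gene symbol in the array's annotation was a listed gene. This gave 95 probe sets for 38 of the 40 genes, out of 45037 probe sets and 18193 genes in all. For 2 of the listed genes, Grin1 and Shank2, no probe set carried that symbol alone, and they were not analysed here. The genes with a single probe set numbered 9, and 29 had several, and for these the probe set of highest mean level was used.

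Rods, cones and bipolar cells release glutamate tonically from ribbon synapses, where a sheet of the ribbon protein holds vesicles close to calcium channels that stay open for long periods. Conventional synapses of amacrine and ganglion cells release in bursts and use other members of the same families, so that syntaxin 3, complexins 3 and 4 and the calcium channel subunit made from Cacna1f are known from ribbon terminals, whereas syntaxin 1A and complexins 1 and 2 are known from conventional ones. Glutamate is read by AMPA and NMDA receptors on bipolar, horizontal, amacrine and ganglion cells, and inhibition by GABA and glycine receptors.

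RNA came from the neural retina of 10-week-old mice of 2 strains, C57BL/6NCrSlc (B6) and 129X1/SvJJmsSlc (129). In each strain there were 3 states, namely normal retina taken intact, retinal explants cultured for 3 days (3DIV) with vehicle (DMSO), and retinal explants cultured for 3 days with 15 µM CHIR99021, an inhibitor of GSK3. Each of these 6 groups had 2 Affymetrix mouse expression arrays, for 12 arrays in all. The study used explant culture as retinal damage and asked how the response differed between strains, and the labels name no transgene. Isolation cuts the axons of ganglion cells and takes the retina from the pigmented epithelium in every explant, so culture and damage cannot be told apart. By their titles the 2 samples of a group are biological replicates, but whether both retinas came from 1 animal is not stated, and the p-values measure only the spread between these arrays.

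Values below are log2 of the deposited RMA intensities, and differences were taken within a probe set. Each difference is given as log2 units ± its standard error (SE) in a limma fit over all 12 arrays with 2 arrays per group, and a member was called higher or lower when its Benjamini-Hochberg adjusted p over all probe sets was under 0.05. The 2 arrays of a group differed by a median of 0.0587 to 0.0887 over the 38 members and by at most 0.386. By mean level Grin2a lay at percentile 13.6 of all probe sets and each of the others at percentile 55 or above. Because array intensity also depends on the probe, those ranks describe signal, not transcript amount. Whole retina was measured, so fewer cells of a type and less RNA per cell cannot be told apart.

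After 3 days in culture most members of the release machinery were lower in both strains. In B6, 22 of the 38 members were called lower and 4 higher, against 16.9% and 19.3% of all genes, and the median change of the members was -0.31 against -0.0021 for all genes. In 129, 26 were called lower and 4 higher, against 17% and 19.1% of all genes, with a median of -0.54 against -0.01. Among the 11489 genes above the median level 21.9% were called lower in B6 and 22.4% in 129. The members called lower in both strains numbered 21, those called higher in both were Slc17a6, Gria1 and Nlgn1, and 6 were called in neither strain. The share of all genes called in both strains was not counted.

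Photoreceptor markers moved in the same arrays. All 8 rod markers with a probe set were called lower in both strains, with medians of -1.28 in B6 and -1.49 in 129, and of 7 cone markers 6 and 7 were called lower, with medians of -2.84 and -2.95. The summed intensity of the rod markers was 79493 to 80831 in normal B6 retina, 41016 to 42324 at 3DIV and 29329 to 29696 with CHIR99021, and in 129 it was 80754 to 83137, 36609 to 40086 and 28250 to 30462. Cone markers summed to 16120 to 18678 in normal B6 retina and 1732 to 2369 at 3DIV, and to 14903 to 15411 and 1136 to 1184 in 129. Bipolar markers had medians of -0.055 in B6 and -0.24 in 129, and 11 and 10 of 11 markers of microglia and macrophages were called higher. Ganglion cell markers were called lower for 6 of 9 in each strain. Markers of neighbouring tissue varied too, since 4 of 5 lens markers were called higher in normal 129 than in normal B6 retina (median 4.81). The 2 normal 129 arrays lay far apart, with lens markers summing to 949 in replicate 1 and 25453 in replicate 2, against 212 and 242 in normal B6 retina. Of 4 markers of pigmented epithelium, 3 were called lower at 3DIV in each strain (medians -4.93 and -4.19). Their sums in normal 129 retina were 4114 in replicate 1 and 10298 in replicate 2. What part these shifts had in the members' changes was not tested.

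**Figure D1:**
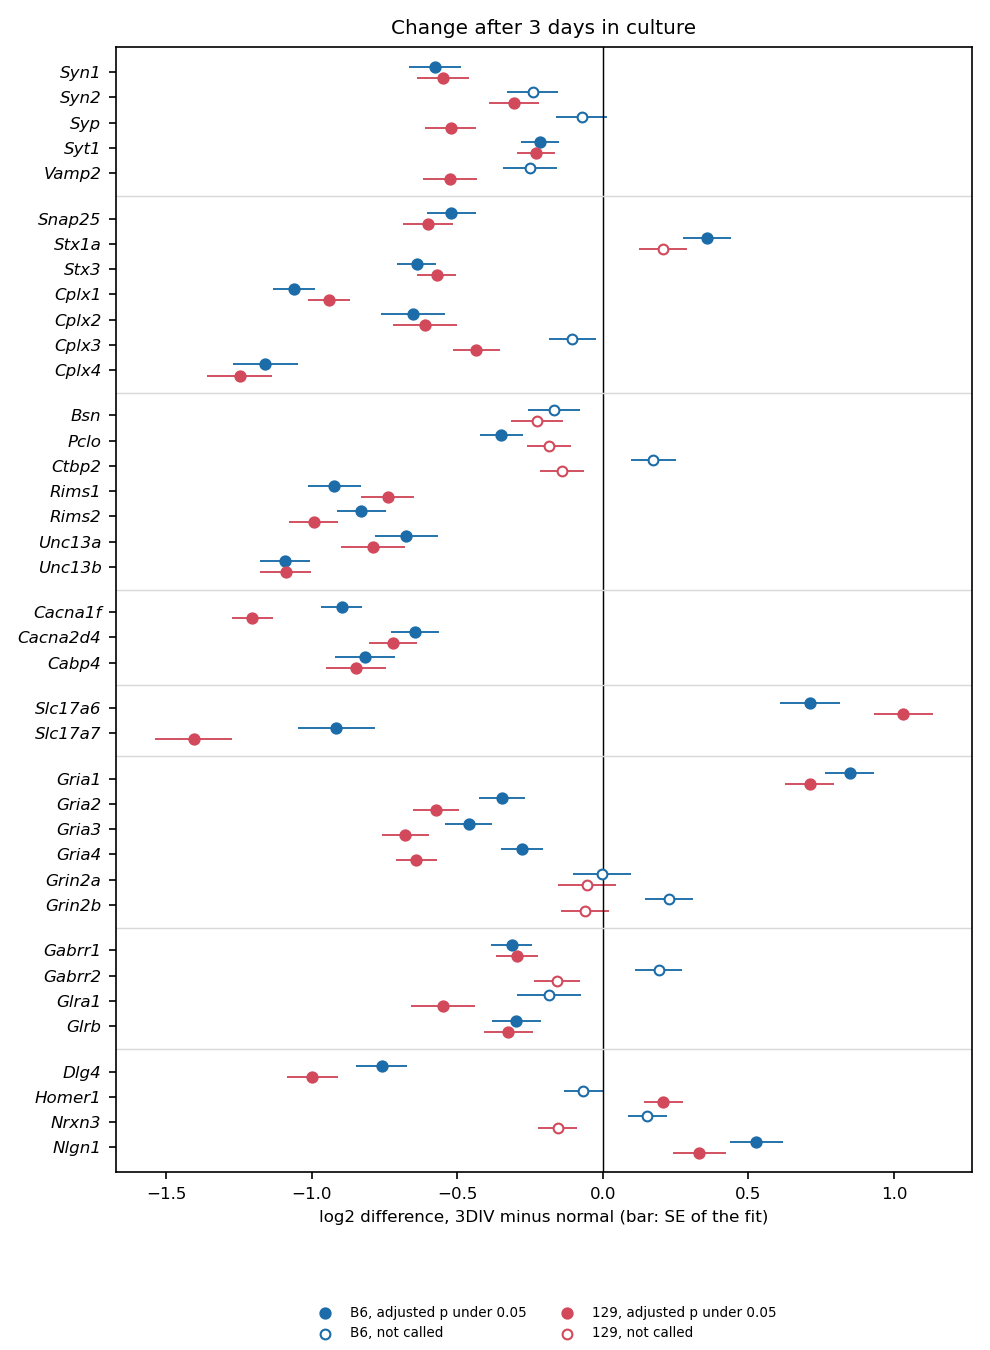
Change in log2 intensity from normal retina to 3DIV for the 38 members, grouped by role, in B6 (blue) and 129 (red). Points are differences of the means of 2 arrays, bars their SE, and filled points were called at an adjusted p under 0.05. Most points lie left of 0 in both strains, and Slc17a6, Gria1 and Nlgn1 lie right of it in both.

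Of 5 vesicle protein genes, 2 were called lower in B6, with a median of -0.24, and 5 in 129, with a median of -0.52. Synapsin 1 (Syn1), which ties vesicles to the cytoskeleton and to each other, read 8.58 and 8.70 in normal retina, 7.97 and 8.16 at 3DIV and 8.10 and 8.05 with CHIR99021 in B6. In 129 Syn1 read 8.38 and 8.36 in normal retina, 7.91 and 7.74 in vehicle explants and 8.04 and 8.06 in explants with CHIR99021. Normal retinas of both strains lay above all explants, with no overlap. The change after damage was -0.58 ± 0.089 in B6 and -0.55 ± 0.089 in 129 (adjusted p 0.000546 and 0.00075). Synaptophysin (Syp), the membrane protein by which synaptic vesicles are usually stained, read 10.96 and 11.02 in normal retina, 10.78 and 11.05 in vehicle explants and 10.50 and 10.56 in explants with CHIR99021 in B6. In 129 Syp read 10.72 and 10.76 in normal retina, 10.23 and 10.20 at 3DIV and 10.30 and 10.31 with CHIR99021. The explants of 129 lay below the normal retinas of that strain, whereas of the vehicle explants of B6 one lay below and one above the normal B6 retinas. Its change was -0.07 ± 0.088 in B6 (adjusted p 0.581) and -0.52 ± 0.088 in 129 (adjusted p 0.000955).

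Synaptobrevin 2 (Vamp2), the SNARE protein of the vesicle membrane, read 11.30 and 11.30 in normal retina, 10.92 and 11.18 at 3DIV and 10.74 and 10.69 with CHIR99021 in B6. In 129 Vamp2 read 11.12 and 11.12 in normal retina, 10.67 and 10.52 in vehicle explants and 10.56 and 10.65 in explants with CHIR99021. Vehicle explants of both strains lay below normal retina without overlap, but the 2 vehicle explants of B6 lay apart from each other. The change was -0.25 ± 0.094 in B6 (adjusted p 0.0642) and -0.53 ± 0.094 in 129 (adjusted p 0.00138), and the other probe set, 1420833_at, changed by -0.71 ± 0.15 in B6 (adjusted p 0.00506). Synapsin 2 (Syn2) read 7.84 and 8.04 in normal retina, 7.71 and 7.69 in vehicle explants and 7.86 and 7.92 in explants with CHIR99021 in B6. In 129 Syn2 read 7.97 and 7.998 in normal retina, 7.67 and 7.68 at 3DIV and 7.41 and 7.59 with CHIR99021. Normal retinas were again above vehicle explants in both strains, and with CHIR99021 the B6 explants returned to the range of normal B6 retina while the 129 explants lay below their vehicle explants. Its changes were -0.24 ± 0.086 and -0.31 ± 0.086 (adjusted p 0.0546 and 0.0201), and 3 other probe sets of the gene, 1428460_at, 1435511_at and 1449030_at, were called lower in both strains. The call in 129 was lost without any 1 of the 4 arrays of normal and vehicle 129 retina (adjusted p 0.065 to 0.0923). Synaptotagmin 1 (Syt1), the calcium sensor of fast release, changed by -0.22 ± 0.065 and -0.23 ± 0.065, and its call was lost in each strain without any 1 of the 4 arrays compared (adjusted p 0.0501 to 0.118 in B6 and 0.0662 to 0.108 in 129).

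Start-site sequence of the members was set beside their changes. RefSeq promoter windows on GRCm38.p6 were found for 27 of the 38 members, in 37 windows, and the 250 bases before the start site were searched on both strands for TAATCC, the core bound by the photoreceptor factor CRX, and for TCAGCACC, part of the element bound by REST, a repressor of neuronal genes. TAATCC was found in 4 of the 37 windows, of Syp, Dlg4, Gabrr2 and Ctbp2, and in 6.25% of all 32851 windows. TCAGCACC was found in 2, of Syn1 and Nlgn1, and in 1.32% of all windows. Of the 15 genes with a window that were called lower in both strains, 1 held the first motif and 1 the second. With so few windows these counts are no result about the members. The windows of Syp and Dlg4 are shown because both genes were called lower in 129 and both hold the CRX core, which stands in capitals as read from the other strand, at positions -246 and -19 from the start site. Dlg4 has 3 windows, and the other 2 held neither motif. Syp was not called after damage in B6, and Ctbp2 and Gabrr2, which also hold the CRX core, were not called after damage in either strain.
Syp, chrX:7638330-7638579, plus strand: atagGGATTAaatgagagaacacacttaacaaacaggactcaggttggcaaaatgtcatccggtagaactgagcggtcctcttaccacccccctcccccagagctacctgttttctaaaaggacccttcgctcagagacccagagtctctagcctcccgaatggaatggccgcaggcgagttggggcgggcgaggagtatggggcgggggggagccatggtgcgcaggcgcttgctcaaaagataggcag
Dlg4, chr11:70016953-70017202, plus strand: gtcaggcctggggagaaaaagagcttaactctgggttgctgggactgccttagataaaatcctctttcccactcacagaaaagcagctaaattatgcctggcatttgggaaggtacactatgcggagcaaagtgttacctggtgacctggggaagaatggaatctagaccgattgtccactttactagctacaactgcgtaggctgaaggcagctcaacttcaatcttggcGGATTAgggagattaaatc

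The fusion genes held one of the largest falls of the list and one gene that turned around. Of 7 SNARE and complexin genes, 5 were called lower in B6 and 6 in 129, and the medians were -0.64 and -0.60. Complexin 4 (Cplx4), which clamps and primes release at photoreceptor ribbons, read 12.19 and 11.98 in normal retina, 10.86 and 10.996 at 3DIV and 10.31 and 10.39 with CHIR99021 in B6. In 129 Cplx4 read 12.03 and 11.89 in normal retina, 10.61 and 10.81 in vehicle explants and 10.23 and 9.996 in explants with CHIR99021. The 3 states of each strain formed separate steps downward. The change after damage was -1.16 ± 0.11 in B6 and -1.25 ± 0.11 in 129 (adjusted p 1.77e-05 and 9.03e-06). These levels were 2.23-fold and 2.38-fold lower.

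Complexin 1 (Cplx1), the form of conventional synapses, read 10.91 and 11.002 in normal retina, 9.93 and 9.85 in vehicle explants and 10.80 and 10.78 in explants with CHIR99021 in B6. In 129 Cplx1 read 10.86 and 10.89 in normal retina, 9.96 and 9.91 at 3DIV and 10.57 and 10.64 with CHIR99021. Vehicle explants lay far below normal retina in both strains, and explants with CHIR99021 lay most of the way back, still below normal retina. The change after damage was -1.06 ± 0.072 in B6 and -0.94 ± 0.072 in 129 (adjusted p 1.11e-06 and 2.74e-06), and all 3 probe sets of Cplx1 were called lower in both strains. Its upstream window is shown because Cplx1 was the only member whose leading probe set was called lower after damage and then higher with the inhibitor in either strain. It held neither motif, and 64.8% of its bases were G or C against a median of 52.4% over all windows.
Cplx1, chr5:108550028-108550277, minus strand: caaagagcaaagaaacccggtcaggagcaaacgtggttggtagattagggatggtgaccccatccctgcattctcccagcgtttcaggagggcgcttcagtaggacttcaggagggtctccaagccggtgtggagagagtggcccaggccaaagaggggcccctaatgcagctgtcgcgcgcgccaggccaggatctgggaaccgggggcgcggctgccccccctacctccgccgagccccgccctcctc

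Complexin 2 (Cplx2) read 10.27 and 10.44 in normal retina, 9.59 and 9.81 at 3DIV and 9.43 and 9.14 with CHIR99021 in B6. In 129 Cplx2 read 10.41 and 10.48 in normal retina, 9.85 and 9.81 in vehicle explants and 9.48 and 9.39 in explants with CHIR99021. It stepped down with culture and again with CHIR99021, and no group overlapped the next. The changes after damage were -0.65 ± 0.11 and -0.61 ± 0.11 (adjusted p 0.00101 and 0.00148). Syntaxin 3 (Stx3), the target-membrane SNARE of ribbon terminals, read 12.77 and 12.77 in normal retina, 12.11 and 12.15 in vehicle explants and 11.97 and 12.04 in explants with CHIR99021 in B6. In 129 Stx3 read 12.68 and 12.72 in normal retina, 12.11 and 12.15 at 3DIV and 11.97 and 11.92 with CHIR99021. Arrays of the same state lay close together in both strains, and vehicle explants lay below normal retina, with changes of -0.64 ± 0.067 and -0.57 ± 0.067 (adjusted p 3.32e-05 and 7.07e-05). Syntaxin 1A (Stx1a), its counterpart at conventional synapses, went the other way by 0.36 ± 0.082 in B6 (adjusted p 0.00646) and 0.21 ± 0.082 in 129 (adjusted p 0.0832). That call in B6 was lost without normal B6 replicate 2 (adjusted p 0.0514) and with arrays centred on housekeeping genes (0.0591, adjusted p 0.516). Snap25, whose protein is the third SNARE of the complex, changed by -0.52 ± 0.085 and -0.60 ± 0.085, and complexin 3 (Cplx3) by -0.11 ± 0.081 in B6, which was not called, and by -0.44 ± 0.081 in 129, which was. The second probe set of Snap25, 1447763_at, was not called in either strain and read 8.88 and 7.59 in the vehicle explants of B6. With the mean of all probe sets the Snap25 call in 129 ended.

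Of 7 active zone and ribbon genes, 5 were called lower in B6 and 4 in 129, with medians of -0.68 and -0.74, and RIM and Munc13 genes made up 4 of them in each strain. Munc13-2 (Unc13b), a vesicle priming factor found at photoreceptor ribbons, read 11.09 and 11.09 in normal retina, 9.92 and 10.07 at 3DIV and 9.54 and 9.37 with CHIR99021 in B6. In 129 Unc13b read 11.15 and 11.18 in normal retina, 9.99 and 10.15 in vehicle explants and 9.50 and 9.54 in explants with CHIR99021. The 3 states formed separate steps downward in each strain, and the change was -1.09 ± 0.087 in B6 and -1.09 ± 0.087 in 129 (adjusted p 4.22e-06 and 3.88e-06). Munc13-1 (Unc13a), the priming factor of most synapses, read 8.07 and 8.17 in normal retina, 7.44 and 7.45 in vehicle explants and 7.28 and 7.21 in explants with CHIR99021 in B6. In 129 Unc13a read 7.76 and 8.07 in normal retina, 7.23 and 7.01 at 3DIV and 7.06 and 7.14 with CHIR99021. Normal retinas were higher than all explants of their strain, with changes of -0.68 ± 0.11 and -0.79 ± 0.11 (adjusted p 0.000724 and 0.000227).

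RIM1 (Rims1), which tethers calcium channels near docked vesicles, read 10.13 and 10.39 in normal retina, 9.34 and 9.33 at 3DIV and 8.89 and 8.80 with CHIR99021 in B6. In 129 Rims1 read 10.19 and 10.08 in normal retina, 9.41 and 9.38 in vehicle explants and 8.70 and 8.68 in explants with CHIR99021. Each state was a step below the one before in both strains, and the changes after damage were -0.92 ± 0.090 and -0.74 ± 0.090 (adjusted p 2.02e-05 and 9.63e-05). RIM2 (Rims2), a large RIM of photoreceptor terminals, read 11.38 and 11.49 in normal retina, 10.59 and 10.63 in vehicle explants and 10.25 and 10.05 in explants with CHIR99021 in B6. In 129 Rims2 read 11.004 and 11.08 in normal retina, 10.01 and 10.08 at 3DIV and 9.68 and 9.62 with CHIR99021. The 129 arrays lay below the B6 arrays in each state. Its changes after damage were -0.83 ± 0.084 and -0.99 ± 0.084 (adjusted p 2.54e-05 and 5.82e-06). Ctbp2, whose locus encodes the ribbon protein RIBEYE, changed by 0.17 ± 0.076 in B6 and -0.14 ± 0.076 in 129, and Bassoon (Bsn), which anchors the ribbon, by -0.17 ± 0.089 and -0.23 ± 0.089. None of these 4 changes was called. Piccolo (Pclo) was called lower in B6 (-0.35 ± 0.074) and not in 129 (-0.19 ± 0.074, adjusted p 0.0849), and its other probe set 1455373_at was called lower in 129 (-0.37 ± 0.10). A second probe set of Bassoon, 1422023_at, was likewise called lower in 129 (-0.27 ± 0.080).

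All 3 members of the presynaptic calcium channel of photoreceptors were called lower in both strains. Cacna1f encodes the pore, and it read 10.06 and 10.01 in normal retina, 9.10 and 9.17 at 3DIV and 8.51 and 8.48 with CHIR99021 in B6. In 129 Cacna1f read 9.92 and 9.94 in normal retina, 8.67 and 8.78 in vehicle explants and 8.13 and 8.11 in explants with CHIR99021. The groups formed 3 separate steps in each strain, and the explants of 129 lay below those of B6. The change after damage was -0.90 ± 0.070 in B6 and -1.21 ± 0.070 in 129 (adjusted p 3.58e-06 and 3.4e-07), or 1.86-fold and 2.31-fold lower. Cabp4, a calcium-binding protein that shifts the channel's opening to more negative voltages, read 11.42 and 11.54 in normal retina, 10.59 and 10.73 in vehicle explants and 10.17 and 10.05 in explants with CHIR99021 in B6. In 129 Cabp4 read 11.56 and 11.38 in normal retina, 10.66 and 10.58 at 3DIV and 10.49 and 10.26 with CHIR99021. Normal retinas lay above vehicle explants in both strains, and the changes were -0.82 ± 0.10 and -0.85 ± 0.10 (adjusted p 0.000132 and 9.21e-05). The accessory subunit Cacna2d4 read 10.67 and 10.59 in normal retina, 9.96 and 10.01 at 3DIV and 9.54 and 9.41 with CHIR99021 in B6. In 129 Cacna2d4 read 10.69 and 10.60 in normal retina, 9.86 and 9.98 in vehicle explants and 9.53 and 9.41 in explants with CHIR99021. The ranges of the 2 strains overlapped in each state at this probe set, and the changes were -0.65 ± 0.084 and -0.72 ± 0.084 (adjusted p 0.00016 and 6.62e-05).

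The 2 vesicular glutamate transporters, which load vesicles with glutamate, moved in opposite directions. VGLUT1 (Slc17a7), the transporter of photoreceptors and bipolar cells, read 8.63 and 8.84 in normal retina, 7.63 and 8.02 in vehicle explants and 7.33 and 7.30 in explants with CHIR99021 in B6. In 129 Slc17a7 read 9.67 and 9.75 in normal retina, 8.15 and 8.45 at 3DIV and 8.12 and 8.07 with CHIR99021. It was lower in explants of both strains, and the 2 vehicle explants of B6 differed by 0.386, the widest gap between replicates at any member's leading probe set. The change was -0.92 ± 0.13 in B6 and -1.41 ± 0.13 in 129 (adjusted p 0.000365 and 1.43e-05). VGLUT2 (Slc17a6), the transporter of ganglion cells, read 9.92 and 9.85 in normal retina, 10.65 and 10.54 at 3DIV and 10.56 and 10.24 with CHIR99021 in B6. In 129 Slc17a6 read 9.98 and 10.01 in normal retina, 10.99 and 11.06 in vehicle explants and 10.71 and 10.84 in explants with CHIR99021. Every explant lay above every normal retina. The change was 0.71 ± 0.10 in B6 and 1.03 ± 0.10 in 129 (adjusted p 0.000333 and 1.98e-05). With arrays centred on housekeeping genes both changes stayed called (0.41 and 0.69). Its second probe set, 1418610_at, also rose, by 0.50 ± 0.11 and 0.92 ± 0.11. Ganglion cell markers, for which Slc17a6 is not one of the 9 counted, had medians of -0.74 in B6 and -0.59 in 129.
The upstream windows of this pair are shown because they changed in opposite directions after damage. Neither held either motif, and G or C made up 61.2% of the bases for Slc17a7 and 53.2% for Slc17a6 at the first of its 2 start sites.
Slc17a7, chr7:45163671-45163920, plus strand: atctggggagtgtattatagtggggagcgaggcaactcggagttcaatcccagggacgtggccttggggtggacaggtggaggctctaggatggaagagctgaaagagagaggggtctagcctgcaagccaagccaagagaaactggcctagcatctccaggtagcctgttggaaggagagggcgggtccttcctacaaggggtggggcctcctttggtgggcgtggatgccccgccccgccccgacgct
Slc17a6, chr7:51621580-51621829, plus strand: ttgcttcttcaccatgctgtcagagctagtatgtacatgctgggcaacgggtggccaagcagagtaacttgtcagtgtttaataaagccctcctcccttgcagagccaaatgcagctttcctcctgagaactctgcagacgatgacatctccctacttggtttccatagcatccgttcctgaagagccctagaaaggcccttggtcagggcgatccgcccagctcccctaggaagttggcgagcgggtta

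Among the AMPA receptor subunits, 1 rose and 3 fell in both strains. GluA1 (Gria1) read 7.68 and 7.81 in normal retina, 8.54 and 8.64 in vehicle explants and 9.01 and 8.86 in explants with CHIR99021 in B6. In 129 Gria1 read 7.68 and 7.81 in normal retina, 8.45 and 8.45 at 3DIV and 8.83 and 8.89 with CHIR99021. The 3 states rose in steps in both strains without overlap. The change after damage was 0.85 ± 0.084 in B6 and 0.71 ± 0.084 in 129 (adjusted p 2.29e-05 and 7.88e-05), or 1.8-fold and 1.64-fold higher, and the second probe set, 1448972_at, changed by 0.67 ± 0.10 and 0.48 ± 0.10. GluA3 (Gria3) read 9.20 and 9.13 in normal retina, 8.68 and 8.72 at 3DIV and 8.25 and 8.37 with CHIR99021 in B6. In 129 Gria3 read 9.45 and 9.48 in normal retina, 8.77 and 8.80 in vehicle explants and 8.35 and 8.54 in explants with CHIR99021. It stepped down through the 3 states, with changes after damage of -0.46 ± 0.081 and -0.68 ± 0.081 (adjusted p 0.00125 and 7.79e-05).

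GluA4 (Gria4) read 9.31 and 9.25 in normal retina, 8.96 and 9.04 in vehicle explants and 8.55 and 8.64 in explants with CHIR99021 in B6. In 129 Gria4 read 9.52 and 9.47 in normal retina, 8.89 and 8.82 at 3DIV and 8.52 and 8.55 with CHIR99021. Normal 129 retinas were above normal B6 retinas and vehicle explants of 129 below those of B6, and the changes were -0.28 ± 0.071 and -0.64 ± 0.071 (adjusted p 0.0119 and 4.68e-05). GluA2 (Gria2), the subunit that makes AMPA receptors impermeable to calcium, read 10.01 and 10.07 in normal retina, 9.74 and 9.65 at 3DIV and 9.78 and 9.77 with CHIR99021 in B6. In 129 Gria2 read 10.48 and 10.53 in normal retina, 9.89 and 9.97 in vehicle explants and 9.69 and 9.86 in explants with CHIR99021. All explants lay below the normal retinas of their strain, and the changes were -0.35 ± 0.080 and -0.57 ± 0.080 (adjusted p 0.0065 and 0.000246). In B6 the call of Gria4 was lost without normal replicate 1 or vehicle replicate 1 (adjusted p 0.0596 to 0.0789) and that of Gria2 without vehicle replicate 2 (adjusted p 0.0519). The NMDA receptor subunits Grin2a and Grin2b were not called, and the listed subunit Grin1 was not measured. Grin2a changed by -0.0031 ± 0.099 and -0.06 ± 0.099, at the low level given above, and Grin2b by 0.23 ± 0.083 and -0.06 ± 0.083.

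Of 4 inhibitory receptor genes, 2 were called lower in B6 and 3 in 129, with medians of -0.24 and -0.31. The GABA receptor subunit rho 1 (Gabrr1), known from bipolar cells, read 9.67 and 9.77 in normal retina, 9.38 and 9.43 in vehicle explants and 9.04 and 9.09 in explants with CHIR99021 in B6. In 129 Gabrr1 read 9.73 and 9.80 in normal retina, 9.46 and 9.48 at 3DIV and 9.05 and 9.10 with CHIR99021. Both strains fell in 2 steps without overlap, with changes after damage of -0.31 ± 0.071 and -0.30 ± 0.071 (adjusted p 0.00593 and 0.00832). Subunit rho 2 (Gabrr2) read 8.92 and 9.02 in normal retina, 9.17 and 9.15 at 3DIV and 8.99 and 9.02 with CHIR99021 in B6. In 129 Gabrr2 read 9.09 and 9.10 in normal retina, 8.97 and 8.90 in vehicle explants and 8.75 and 8.95 in explants with CHIR99021. Vehicle explants lay above normal retina in B6 and below it in 129, and neither change was called (0.19 ± 0.080 and -0.16 ± 0.080). The glycine receptor subunit alpha 1 (Glra1) read 8.03 and 8.29 in normal retina, 7.98 and 7.97 in vehicle explants and 7.88 and 7.71 in explants with CHIR99021 in B6. In 129 Glra1 read 8.29 and 8.30 in normal retina, 7.76 and 7.72 at 3DIV and 7.69 and 7.96 with CHIR99021. Explants of 129 were clearly below normal 129 retina, and in B6 the gap was narrow, with changes of -0.19 ± 0.11 (adjusted p 0.24) and -0.55 ± 0.11 (adjusted p 0.0029).

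The glycine receptor beta subunit (Glrb), which binds the receptor to its scaffold, read 9.75 and 9.79 in normal retina, 9.39 and 9.56 at 3DIV and 9.69 and 9.51 with CHIR99021 in B6. In 129 Glrb read 9.84 and 9.86 in normal retina, 9.53 and 9.52 in vehicle explants and 9.51 and 9.57 in explants with CHIR99021. Vehicle explants were lower in both strains, with changes of -0.30 ± 0.084 and -0.32 ± 0.084 (adjusted p 0.0199 and 0.0129). These calls did not hold without normal B6 replicate 2 or vehicle B6 replicate 1 (adjusted p 0.0874 to 0.152), nor without any 1 of the 4 arrays compared in 129 (adjusted p 0.0501 to 0.0649). For Gabrr1 in 129 the call ended without normal replicate 2 or vehicle replicate 1 (adjusted p 0.0507 to 0.0662).

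Scaffold and adhesion genes had no common direction. PSD-95 (Dlg4), a scaffold of excitatory synapses that in the retina also lines photoreceptor terminals, read 9.76 and 9.81 in normal retina, 8.99 and 9.07 in vehicle explants and 8.71 and 8.56 in explants with CHIR99021 in B6. In 129 Dlg4 read 9.63 and 9.75 in normal retina, 8.65 and 8.73 at 3DIV and 8.58 and 8.73 with CHIR99021. All explants lay well below normal retina, and the changes were -0.76 ± 0.087 and -0.999 ± 0.087 (adjusted p 6.49e-05 and 7.35e-06). Neuroligin 1 (Nlgn1), a postsynaptic adhesion protein, read 7.61 and 7.73 in normal retina, 8.17 and 8.23 at 3DIV and 8.51 and 8.37 with CHIR99021 in B6. In 129 Nlgn1 read 8.05 and 8.13 in normal retina, 8.45 and 8.40 in vehicle explants and 8.60 and 8.83 in explants with CHIR99021. In both strains the values of each state lay above those of the one before, and the changes after damage were 0.53 ± 0.092 and 0.33 ± 0.092 (adjusted p 0.00123 and 0.0181), although centring the arrays on housekeeping genes, which shifted the median of all probe sets to -0.32 in B6 and -0.38 in 129, turned the 129 change to -0.01 and ended the call in B6 (0.23, adjusted p 0.0598). Its call in 129 also ended without normal replicate 1 or either vehicle explant of 129 (adjusted p 0.0563 to 0.104).

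Homer1, a scaffold of metabotropic glutamate receptors, read 8.37 and 8.39 in normal retina, 8.28 and 8.35 in vehicle explants and 8.82 and 8.79 in explants with CHIR99021 in B6. In 129 Homer1 read 8.46 and 8.47 in normal retina, 8.71 and 8.63 at 3DIV and 8.84 and 8.82 with CHIR99021. The vehicle explants lay just below normal retina in B6 and above it in 129. The changes were -0.07 ± 0.067 and 0.21 ± 0.067 (adjusted p 0.503 and 0.0375), and the call in 129 ended without any 1 of 6 arrays, those of the 3 states of 129 (adjusted p 0.0514 to 0.202), while under housekeeping centring the value was -0.14. Another probe set, 1436387_at, was called lower, with -1.38 ± 0.10 in B6 and -0.82 ± 0.10 in 129, so the direction differed between probe sets of the gene. Neurexin 3 (Nrxn3), a presynaptic adhesion protein, read 10.42 and 10.38 in normal retina, 10.57 and 10.54 at 3DIV and 10.45 and 10.42 with CHIR99021 in B6. In 129 Nrxn3 read 10.54 and 10.48 in normal retina, 10.35 and 10.35 in vehicle explants and 10.32 and 10.37 in explants with CHIR99021. Vehicle explants lay above normal retina in B6 and below it in 129, with changes of 0.15 ± 0.066 and -0.16 ± 0.066 that were not called.

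**Figure D2:**
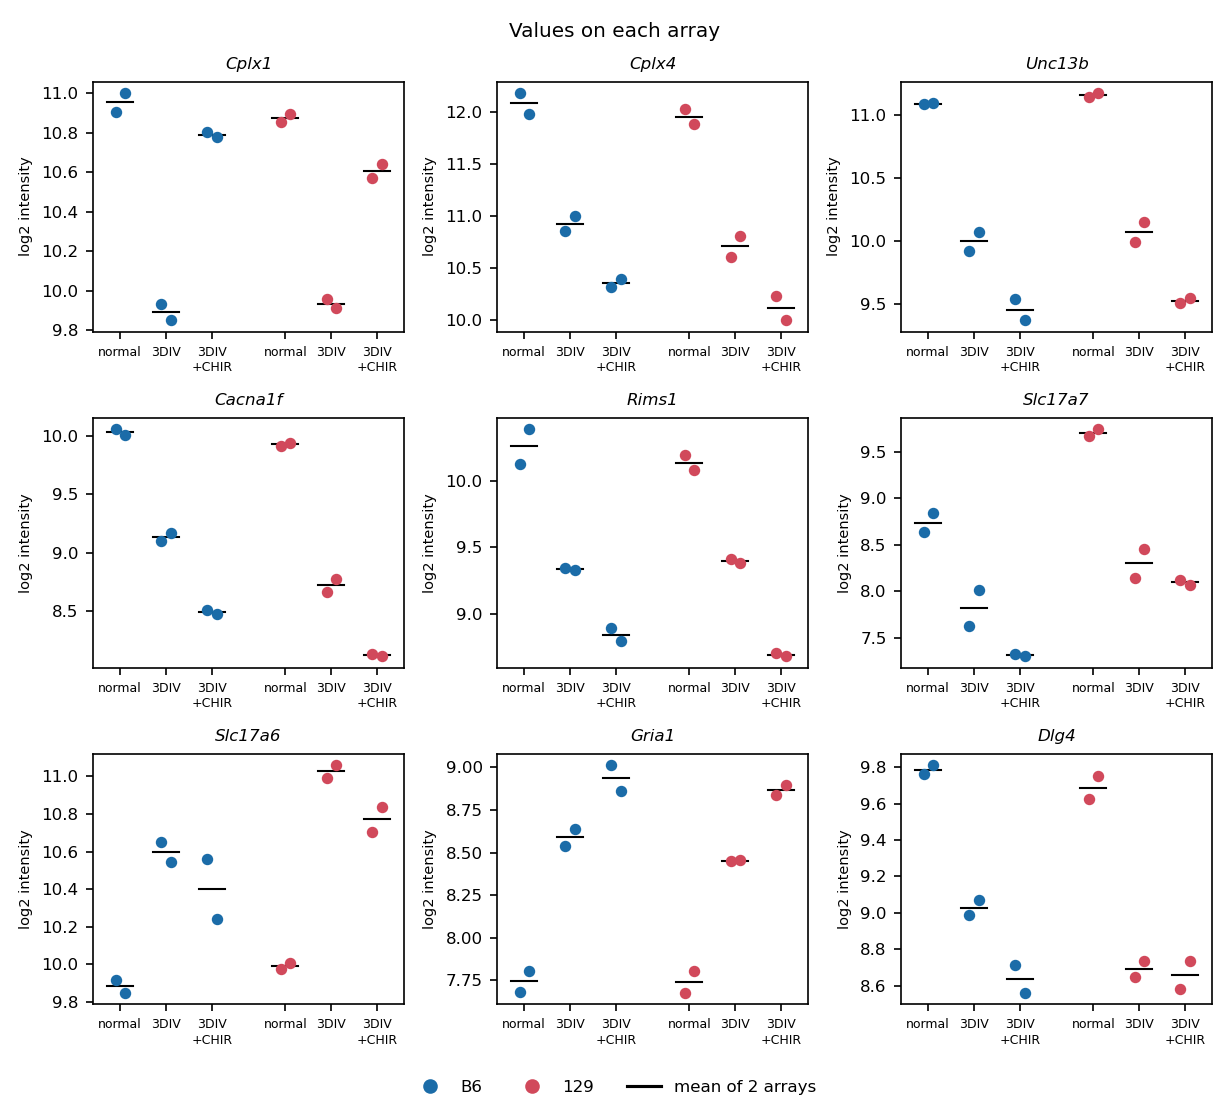
Log2 intensity of 9 members on each of the 12 arrays, for normal retina, 3DIV explants with vehicle and 3DIV explants with CHIR99021 of B6 (blue) and 129 (red), with bars at the mean of 2 arrays. The vertical axes differ between panels and do not start at 0. Cplx1 falls and returns, Cplx4, Unc13b, Cacna1f and Rims1 step down from state to state, and Gria1 steps up.

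With CHIR99021 many of the genes that had fallen in culture were lower still, and Cplx1 moved the other way. Relative to vehicle, 17 of 38 members were called lower and 3 higher in B6, against 12.5% and 8.59% of all genes, with a median of -0.20 against -0.01 for all genes. With arrays centred on housekeeping genes the split in B6 was 9 lower and 5 higher. In 129, 13 were called lower and 2 higher, against 7.86% and 7.28% of all genes, with a median of -0.17 against 0.01. Genes above the median level were called lower in 17.4% of cases in B6 and 11.1% in 129. In both strains 12 members were called lower and 2, Cplx1 and Gria1, higher. Of the members called lower after damage, 14 in B6 and 12 in 129 were called lower again. Shares of all genes were not counted for these joint calls, so they are no result about the members as a group. Both comparisons use the same vehicle explants, so a high or low vehicle array moves them in opposite directions. Summed rod markers were lower with CHIR99021 in each strain, and so were summed markers of bipolar cells, amacrine cells and Müller glia. Bipolar markers summed to 15128 to 15857 with vehicle and 10513 to 11406 with CHIR99021 in B6. In 129 they summed to 13109 to 13265 and 8718 to 10136. By mean log2 the bipolar markers of B6 overlapped between these groups, and so did the sums of ganglion cell markers in each strain. Cone markers summed to 1732 to 2369 with vehicle and 710 to 1294 with CHIR99021 in B6, and to 1136 to 1184 and 808 to 905 in 129, and 6 of 7 cone markers were called lower in B6 and 3 in 129. In addition 10 of 11 microglia and macrophage markers were called lower in B6 and 9 in 129. What part those shifts had was not tested.

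Cplx1 rose with CHIR99021 by 1.86-fold in B6 (0.90 ± 0.072, adjusted p 3.14e-05) and 1.59-fold in 129 (0.67 ± 0.072, adjusted p 0.000265). The calls held without any 1 array and under each of the other alternatives run. Probe set 1417746_at rose likewise, by 0.92 ± 0.067 and 0.86 ± 0.067, whereas 1417747_at rose by 0.36 ± 0.069 in B6 and was not called in 129 (0.08 ± 0.069). Cplx4 was lower, with changes of -0.58 ± 0.11 in B6 and -0.60 ± 0.11 in 129 (adjusted p 0.00526 and 0.00653), and so was Cplx2, with -0.41 ± 0.11 and -0.39 ± 0.11 (adjusted p 0.0244 and 0.042). Complexins 1 and 2, both of conventional synapses, moved in opposite directions with the inhibitor. Without vehicle replicate 2 or inhibitor replicate 2 the calls of Cplx4 in 129 (adjusted p 0.0568 to 0.0674) and of Cplx2 in B6 (0.169 to 0.179) ended, and the call of Cplx2 in 129 ended without any 1 of 6 arrays of that strain (0.0554 to 0.186).

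Of the priming and calcium channel genes, Unc13b, Rims1, Rims2, Cacna1f and Cacna2d4 were called lower in both strains. Unc13b changed by -0.54 ± 0.087 and -0.55 ± 0.087 (adjusted p 0.00185 and 0.00269), Rims1 by -0.49 ± 0.090 and -0.71 ± 0.090 (adjusted p 0.00392 and 0.000793) and Cacna1f by -0.64 ± 0.070 and -0.60 ± 0.070 (adjusted p 0.000202 and 0.00046). These 6 calls held without any 1 array. Rims2 changed by -0.45 ± 0.084 and -0.40 ± 0.084 and Cacna2d4 by -0.51 ± 0.084 and -0.45 ± 0.084, and both calls in 129 ended without vehicle replicate 2 or inhibitor replicate 2 (adjusted p 0.0511 to 0.0926 for Rims2, which also needed inhibitor replicate 1, and 0.0532 to 0.0645 for Cacna2d4). In B6 neither call held with the mean of all probe sets. Rims2 was then not called (-0.14, adjusted p 0.151), and Cacna2d4 was called higher instead of lower (0.18, adjusted p 0.0459). Its probe set 1442863_at was called higher (1.38 ± 0.12). Cabp4 was called lower in B6 (-0.55 ± 0.10, adjusted p 0.00444) and not in 129 (-0.25 ± 0.10, adjusted p 0.155), and the difference between the strains was not called (interaction 0.30 ± 0.15, adjusted p 0.379). Slc17a7 was called lower in B6 (-0.51 ± 0.13) and not in 129 (-0.20 ± 0.13), and the call in B6 ended without vehicle replicate 2 or either inhibitor replicate of B6 (adjusted p 0.0803 to 0.174). Ctbp2 was called lower in both strains (-0.24 ± 0.076 and -0.26 ± 0.076), but each call ended without any 1 of 10 arrays (adjusted p 0.0595 to 0.227 in B6 and 0.052 to 0.233 in 129).

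Of the receptors, Gria1 rose again, by 0.35 ± 0.084 in B6 and 0.41 ± 0.084 in 129 (adjusted p 0.0165 and 0.0102). These calls ended without replicate 1 of either group in B6 (adjusted p 0.103 to 0.116) and without either vehicle explant or inhibitor replicate 2 in 129 (0.0586 to 0.0672). Gria3 changed by -0.39 ± 0.081 and -0.34 ± 0.081, Gria4 by -0.41 ± 0.071 and -0.32 ± 0.071 and Gabrr1 by -0.34 ± 0.071 and -0.40 ± 0.071. Each of these was called lower, and Gria4 in B6 and Gabrr1 in 129 held without any 1 array. With the mean of all probe sets, however, Gria4 was not called in either strain (0.047 in B6 and -0.22 in 129), and its probe set 1440891_at was called higher in B6 (0.40 ± 0.094). The others ended for Gria3 without inhibitor replicate 1 in B6 (0.0564) or any 1 of 3 arrays in 129 (either vehicle explant or inhibitor replicate 1, 0.0825 to 0.155), for Gria4 in 129 without any 1 of 4 (0.0592 to 0.0992), and for Gabrr1 in B6 without vehicle replicate 2 (0.051). Homer1 was called higher in B6 (0.49 ± 0.067, adjusted p 0.000765) and not in 129 (0.15 ± 0.067, adjusted p 0.173), with an interaction of -0.34 ± 0.095 that was not called (adjusted p 0.132).

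Of the vesicle and remaining genes, Syt1 in 129 was called lower under every alternative run, and the other calls were not. Syp (-0.39 ± 0.088), Vamp2 (-0.34 ± 0.094) and Dlg4 (-0.39 ± 0.087) were called lower in B6 and changed by 0.09 ± 0.088, 0.01 ± 0.094 and -0.03 ± 0.087 in 129. All 3 calls ended without vehicle replicate 2 of B6, and also without inhibitor replicate 1 for Syp, replicate 2 for Dlg4 and either for Vamp2, with adjusted p 0.0717 to 0.0926 for Syp, 0.0794 to 0.211 for Vamp2 and 0.0755 to 0.0845 for Dlg4. Syt1 was called lower in both strains (-0.21 ± 0.065 and -0.38 ± 0.065), and its call in B6 ended without any 1 of 10 arrays (0.063 to 0.178). The B6 calls of Syp, Vamp2, Dlg4 and Syt1 also ended with housekeeping centring and with the mean of all probe sets. Snap25 was called in 129 (-0.31 ± 0.085, adjusted p 0.0361) and not in B6 (-0.22 ± 0.085), and that call ended without either vehicle explant or inhibitor replicate 1 of 129 (0.0958 to 0.234). Housekeeping centring also ended the calls of Cplx2, Ctbp2, Slc17a7 and Gabrr1 in B6 and of Snap25, Cplx2 and Ctbp2 in 129. Without vehicle replicate 2 of B6 the members called fell from 20 to 12, and in 129 from 15 to 9 without vehicle replicate 1, to 6 without vehicle replicate 2 and to 8 without inhibitor replicate 2.

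**Figure D3:**
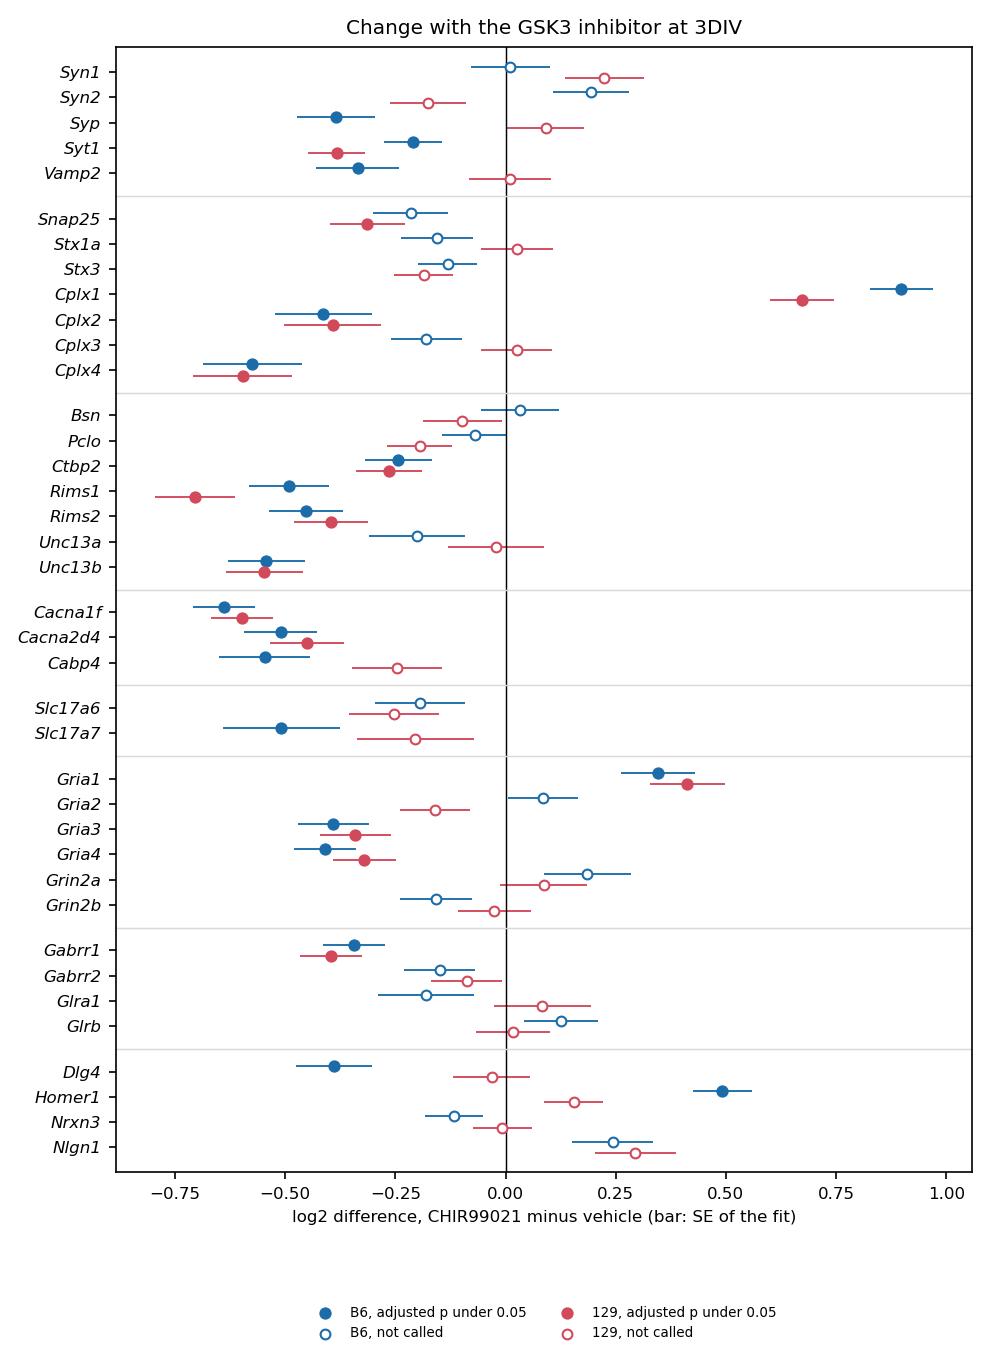
Change in log2 intensity from vehicle to CHIR99021 at 3DIV for the 38 members, grouped by role, in B6 (blue) and 129 (red), with SE bars and filled points for an adjusted p under 0.05. Cplx1 lies farthest to the right in both strains at 0.90 and 0.67, and Cacna1f in B6 and Rims1 in 129 lie farthest to the left at -0.64 and -0.71.

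Strain differences among the members were few, and among leading probe sets Slc17a7 had the largest of them in normal retina and with CHIR99021. In normal retina 4 members were called higher in 129 and 1 lower, against 5.41% and 5.83% of all genes, and the median difference was 0.04 against -0.0081. At 3DIV 4 were higher and 6 lower, against 10.8% and 10.2%, with a median of -0.04 against -0.01. With CHIR99021 2 were higher and 3 lower, against 7.32% and 5.02%, with a median of -0.06 against 0.02, and this split became 1 higher and 3 lower with housekeeping centring and 1 and 4 with cyclic loess. With so few members called, these counts lie near the background shares and are no result about the members as a group.

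Slc17a7, with 1 probe set, was higher in 129 in all 3 states, by 0.97 ± 0.13 in normal retina, 0.48 ± 0.13 at 3DIV and 0.78 ± 0.13 with CHIR99021 (adjusted p 0.000802, 0.0284 and 0.00324). Only the call at 3DIV ended on leaving out 1 array, namely vehicle replicate 1 of B6 or replicate 2 of 129 (adjusted p 0.21 to 0.214). That call also ended with only the compared arrays. Slc17a6 was called higher in 129 in explants, by 0.43 ± 0.10 with vehicle and 0.37 ± 0.10 with CHIR99021 (adjusted p 0.0134 and 0.0418). Its second probe set, 1418610_at, was higher in normal retina as well (1.08 ± 0.11, adjusted p 8.64e-05). The vehicle call ended without vehicle replicate 2 of either strain (0.0891 to 0.0925) and the inhibitor call without any 1 of 11 arrays (0.0507 to 0.271). The AMPA receptor subunits Gria2 (0.46 ± 0.080, adjusted p 0.00325) and Gria3 (0.30 ± 0.081, adjusted p 0.035) and Nlgn1 (0.42 ± 0.092, adjusted p 0.0132) were higher in normal 129 retina and were not called in explants. The call of Gria2 held without any 1 array, that of Gria3 ended without any 1 of 6 (0.0529 to 0.146), and that of Nlgn1 ended without normal B6 replicate 1 or normal 129 replicate 2 (0.0836 to 0.0867).

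Rims2 was lower in 129 in each state, with differences of -0.40 ± 0.084, -0.56 ± 0.084 and -0.50 ± 0.084 (adjusted p 0.0112, 0.00099 and 0.0029). Probe sets of this gene disagreed, since 1450761_s_at was lower in normal 129 retina (-0.34 ± 0.077) whereas 1436470_at was higher there (0.29 ± 0.092, not called) and at 3DIV (0.46 ± 0.092, adjusted p 0.00548), so no strain difference can be read for the gene as a whole. The normal-retina call also ended without normal B6 replicate 2 or normal 129 replicate 1 (adjusted p 0.0719 to 0.0838). Cacna1f, with 1 probe set, was lower in 129 explants with vehicle (-0.41 ± 0.070, adjusted p 0.00209) and with CHIR99021 (-0.37 ± 0.070, adjusted p 0.00583) and not in normal retina (-0.10 ± 0.070), and both calls held without any 1 array. Syp had the largest difference at 3DIV among leading probe sets, -0.70 ± 0.088 (adjusted p 0.000322), and Vamp2 was lower there too, with -0.45 ± 0.094 (adjusted p 0.00635). Their second probe sets were not called and lay on the other side of 0 (0.18 ± 0.085 at 1456249_x_at for Syp and 0.43 ± 0.15 at 1420833_at for Vamp2). Homer1 was higher by 0.36 ± 0.067 (adjusted p 0.00356). Some other probe sets differed more between strains at 3DIV, all higher in 129, namely 1418610_at of Slc17a6 (1.502 ± 0.11), 1421990_at of Syt1 (1.17 ± 0.12), 1426151_a_at of Stx3 (1.13 ± 0.13), 1452423_at of Pclo (1.07 ± 0.093) and 1440891_at of Gria4 (0.81 ± 0.094). With CHIR99021 1452423_at of Pclo was higher by 0.91 ± 0.093.

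The remaining calls at leading probe sets were Cplx3 (-0.37 ± 0.081), Dlg4 (-0.34 ± 0.087) and Pclo (0.30 ± 0.074) at 3DIV and Syn2 with CHIR99021 (-0.39 ± 0.086, adjusted p 0.0143). Probe sets 1452423_at and 1455373_at of Pclo were higher in normal 129 retina too (0.74 ± 0.093 and 0.41 ± 0.10, adjusted p 0.000441 and 0.0239). The other probe sets of Dlg4 (1419581_at and 1460261_at) at 3DIV and the 5 of Syn2 with CHIR99021 were not called for these differences. Of the 5 others of Homer1 at 3DIV, 1436387_at and 1425710_a_at were called higher (0.54 ± 0.10 and 0.45 ± 0.14) and 3 were not called. Leaving out 1 array ended the calls, for Cplx3 vehicle replicate 1 of either strain (0.0542 to 0.0556), for Dlg4 vehicle replicate 2 of B6 or either vehicle explant of 129 (0.0563 to 0.118), for Pclo any 1 of the 4 vehicle explants (0.0675 to 0.0938), for Vamp2 vehicle replicate 2 of either strain (0.056 to 0.0646) and for Syn2 inhibitor replicate 2 of B6 or 1 of 129 (0.0892 to 0.132). The count of 10 at 3DIV fell to 6 without vehicle replicate 2 of B6 and 5 without vehicle replicate 2 of 129. In normal retina it fell from 5 to 3 without any 1 of the 4 arrays, and with CHIR99021 from 5 to 3 without inhibitor replicate 2 of B6 or 1 of 129.

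**Figure D4:**
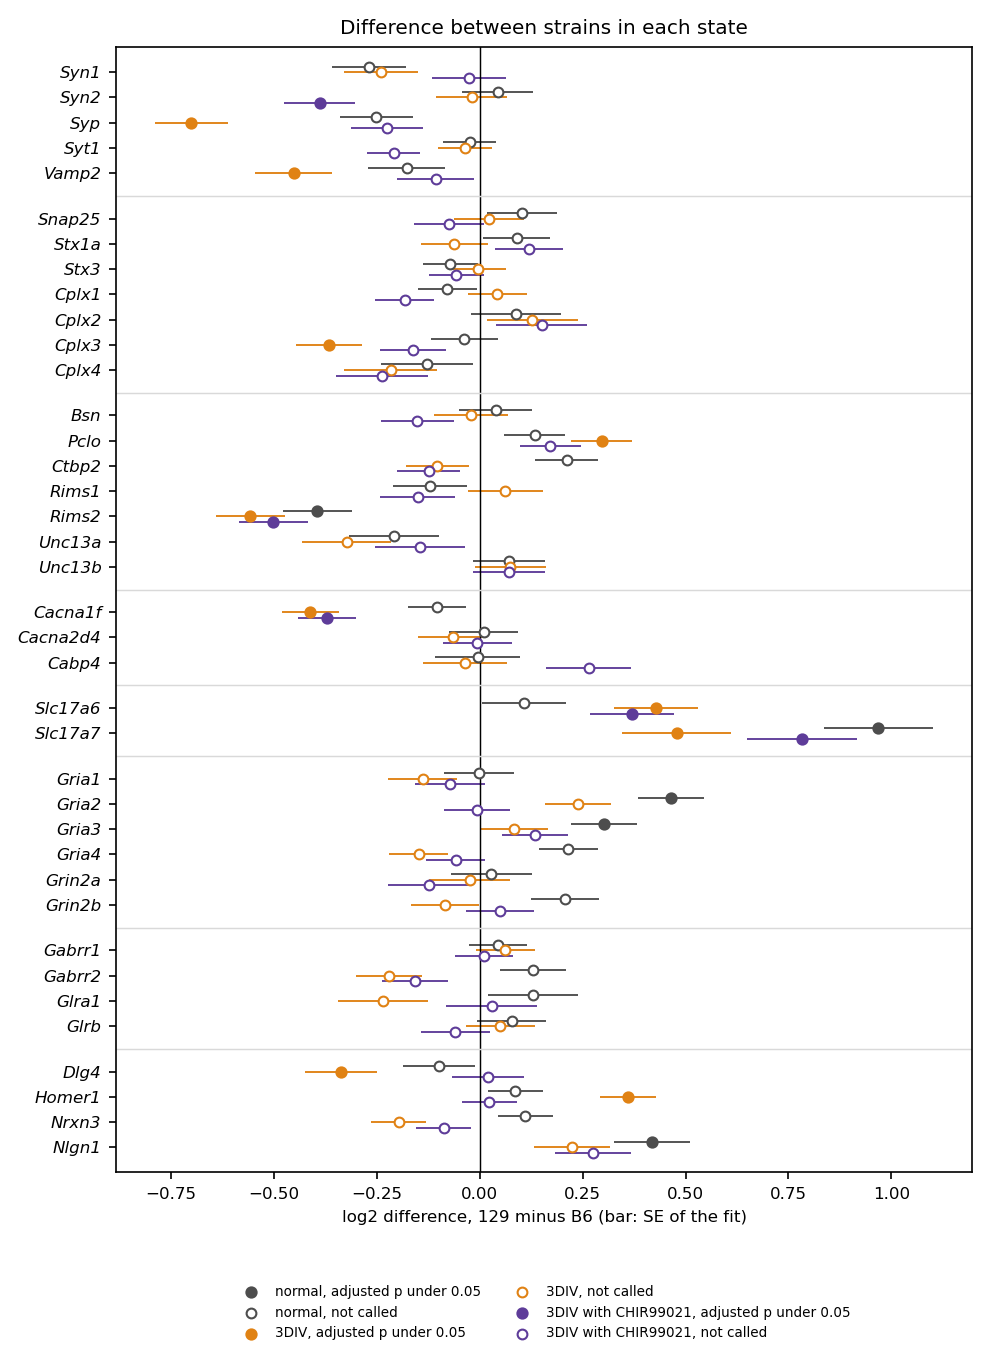
Difference in log2 intensity between strains, 129 minus B6, for the 38 members in normal retina (grey), 3DIV with vehicle (orange) and 3DIV with CHIR99021 (purple), with SE bars and filled points for an adjusted p under 0.05. Slc17a7 lies right of 0 and Rims2 left of 0 in all 3 states, and most other points lie within 0.3 of 0.

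Whether the strains differed in how a member responded was tested as an interaction, the 129 change less the B6 change. In the limma fit 0 of 38 members were called for damage, against 1.74% of all genes higher and 1.32% lower, and 0 for the inhibitor, against 0.599% and 0.357%. At an unadjusted p under 0.05 there were 12 members for damage and 6 for the inhibitor, against 18.8% and 13.8% of all genes at that limit. For 10 of the 12 the interaction was below 0, which concerns the change and not the level in 129. The largest damage interactions were those of Slc17a7 (-0.49 ± 0.19, 95% interval -0.91 to -0.07, adjusted p 0.211), Syp (-0.45 ± 0.12, -0.73 to -0.17, adjusted p 0.092), Glra1 (-0.36 ± 0.15, -0.71 to -0.021, adjusted p 0.259) and Gria4 (-0.36 ± 0.10, -0.59 to -0.14, adjusted p 0.0909). For the inhibitor Syp had the largest (0.48 ± 0.12, 0.20 to 0.75, adjusted p 0.106). With trend and robust eBayes 5 members were called for damage, Syp, Cplx3, Ctbp2, Gria4 and Nrxn3, and with probe sets above the median level alone 3, Syp, Gria4 and Nrxn3. The intervals show how large a difference these 12 arrays could have missed. For damage they were -0.27 to 0.28 for Unc13b and -0.10 to 0.35 for Cplx1, and others, such as that of Slc17a7 above, were wider.

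Other probe sets of a member did not always give the call of the leading one. Of 57 such probe sets the call differed for 18 after damage in B6 and 20 in 129, 20 with the inhibitor in B6 and 15 in 129, and 12, 19 and 11 for the strain difference in the 3 states. The calls were opposite in 3 cases with the inhibitor in B6, in 1 case after damage in 129 (Homer1) and in 1 case between strains at 3DIV (Rims2). After damage, 1443308_at of Unc13b changed by 0.09 ± 0.14 and 0.06 ± 0.14 and 1434559_at of Stx3 by 0.03 ± 0.096 and 0.05 ± 0.096, none of them called. Syt1 probe set 1421990_at read 7.81 and 7.71 in normal retina, 6.90 and 6.92 in vehicle explants and 8.12 and 7.97 in explants with CHIR99021 in B6. In 129 1421990_at read 8.43 and 8.34 in normal retina, 7.89 and 8.27 at 3DIV and 7.72 and 7.86 with CHIR99021. The B6 vehicle explants lay below each of the other arrays at that probe set. With CHIR99021 it was called higher in B6 (1.13 ± 0.12, adjusted p 0.000129), where the leading probe set, 1433884_at, was called lower (-0.21 ± 0.065). Probe sets called higher in B6 with CHIR99021 were also found for Stx3 at 1426151_a_at (1.10 ± 0.13, adjusted p 0.000378), for Cacna2d4 at 1442863_at (1.38 ± 0.12, adjusted p 4.9e-05), for Gria4 at 1440891_at (0.40 ± 0.094, adjusted p 0.0135) and for Slc17a6 at 1418610_at (0.65 ± 0.11, adjusted p 0.00227). The leading probe sets of these genes changed by -0.13 ± 0.067, -0.51 ± 0.084, -0.41 ± 0.071 and -0.20 ± 0.10. Probe set 1449030_at of Syn2 was called higher in B6 too, where its leading probe set was not called. For Homer1 4 of 6 probe sets were called higher in B6, the leading one among them. Vehicle explants of B6 were the lowest arrays at 1436387_at of Homer1 and not at 1449030_at of Syn2. The vehicle explants of B6 were the lowest arrays at the second probe sets of Stx3, Cacna2d4 and Gria4, and not at that of Slc17a6, where normal B6 retina was lower. These probe sets were picked for a rise from those explants, which favours low values there. Dlg4 was called lower at its leading probe set and not at 1419581_at (0.34 ± 0.12) or 1460261_at (0.25 ± 0.11).

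The added control RNAs dap and thr also set these arrays apart, whereas phe and lys did not. Control RNAs added to each sample before labelling are read at their 3′ and 5′ ends, and the gap between the ends follows the length of the labelled copies. For the control named dap the gap was 4.23 and 4.09 log2 units in the vehicle explants of B6, 3.08 and 3.73 in normal B6 retina, 2.23 and 2.80 in B6 with CHIR99021 and 2.07 to 2.48 in the 6 arrays of 129. For thr it was 3.64 and 3.46, 2.65 and 3.33, 2.49 and 2.85, and 2.16 to 2.81. The vehicle explants of B6 had the widest gap of all arrays for dap and thr. For phe the gap was 1.01 and 0.82 in those explants and 0.96 and 0.89 in normal B6 retina. For lys it was 0.48 and 0.90, against 0.83 and 0.73. The gap of Actb, a gene of the retina itself, was 0.72 and 0.58, against 0.84 and 0.90. What part the gaps of dap and thr had in the disagreeing probe sets, or in any comparison with the vehicle explants of B6, was not tested. The log2 differences for damage and inhibitor within 129 do not use those arrays. Their SEs and calls do, through the spread that the fit shares over all arrays.

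**Figure D5:**
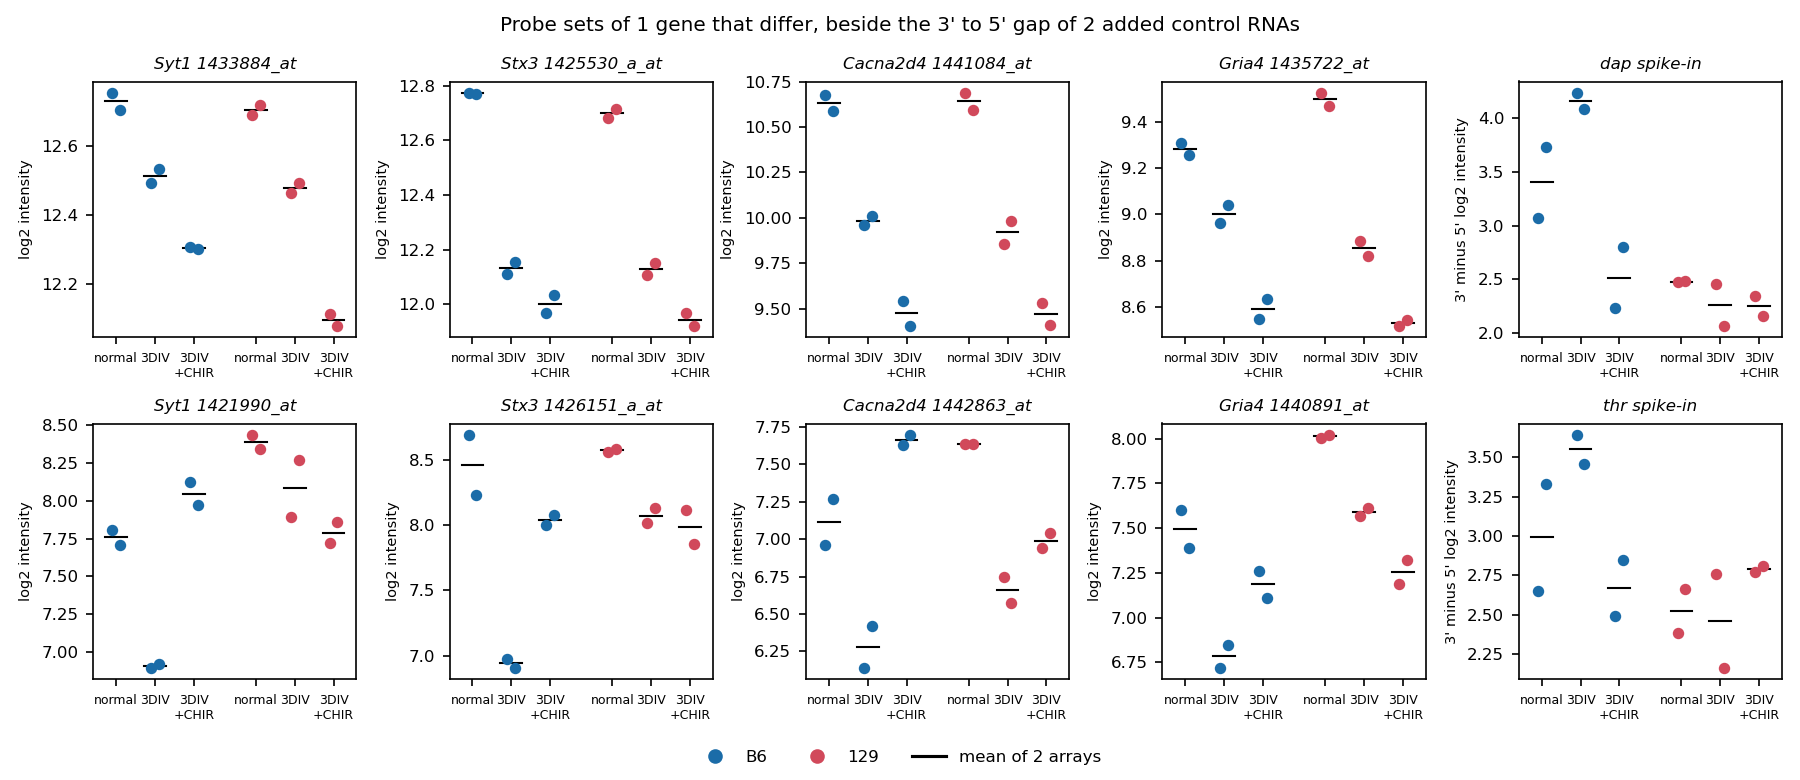
Log2 intensity on each of the 12 arrays for the leading probe set (top row) and a second probe set (bottom row) of Syt1, Stx3, Cacna2d4 and Gria4. The second probe set was the one with the largest rise with CHIR99021 in B6, a choice that favours low vehicle values in B6. The right panels show the 3′ minus 5′ gap of dap and thr, which are not all of the added control RNAs. Blue is B6, red is 129 and bars are means of 2 arrays. In the bottom row the vehicle explants of B6 are the lowest for all 4 genes, and they have the widest gap for both controls.

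Of 86 other synaptic genes listed by the same roles, 77 had a probe set. After damage 29 were called lower and 7 higher in B6, with a median of -0.11, and 37 lower and 5 higher in 129, with a median of -0.24. Of all genes, 16.9% were called lower and 19.3% higher in B6, and 17% and 19.1% in 129. Of 30 other genes of the release machinery, 15 were called lower and 2 higher in B6, and 19 lower and 4 higher in 129. The largest changes were those of Vamp1, a vesicle SNARE related to Vamp2 (-1.25 ± 0.089 in B6 and -1.35 ± 0.089 in 129), Cadps2, a priming factor of dense-core vesicles (1.32 ± 0.13 and 0.70 ± 0.13), Rph3a, an effector of Rab3 (-1.09 ± 0.092 and -1.29 ± 0.092), and the vesicle glycoprotein Sv2b (-0.71 ± 0.083 and -0.95 ± 0.083). With CHIR99021 Vamp1 changed by -0.07 ± 0.089 and 0.18 ± 0.089.

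The counts for other calcium channel, glutamate receptor and, in B6, scaffold genes were small and near those shares of all genes, and they are no result about these groups. Of 9 other calcium channel subunits 2 were lower in each strain, Cacnb2, the beta subunit of the photoreceptor channel (-0.94 ± 0.096 and -0.77 ± 0.096), and Cacnb4 (-0.40 ± 0.088 and -0.52 ± 0.088), and 2 were higher in B6, Cacna1d (0.36 ± 0.096) and Cacna1a (0.29 ± 0.10). Among 13 other glutamate receptor genes 2 were lower in each strain, Grin3a (-0.75 ± 0.080 and -0.97 ± 0.080) and Grin2d (-0.38 ± 0.085 and -0.32 ± 0.085), Grin2c was higher in both (0.50 ± 0.13 and 0.49 ± 0.13), and the kainate receptor subunit Grik3 was higher in B6 (0.93 ± 0.14) and not in 129 (-0.03 ± 0.14), with a called interaction of -0.97 ± 0.19 (adjusted p 0.0287). Of 8 other inhibitory receptor genes 7 were lower in B6 and 5 in 129, with the largest changes in Glra2 (-0.53 ± 0.090 and -0.72 ± 0.090), Gabra2 (-0.52 ± 0.078 and -0.71 ± 0.078), Gabrb1 (-0.50 ± 0.075 and -0.26 ± 0.075) and Gabrb2 (-0.37 ± 0.080 and -0.43 ± 0.080). Of 14 other scaffold and adhesion genes 3 were lower and 1 higher in B6 and 7 lower in 129, led by Elfn1, the adhesion protein of rod terminals (-0.52 ± 0.087 and -0.92 ± 0.087), with Shank3 (-0.17 ± 0.11 and -0.44 ± 0.11), Dlg1 (-0.42 ± 0.080 and -0.33 ± 0.080) and Dlg2 (-0.07 ± 0.071 and -0.41 ± 0.071). The 3 other transmitter transporters were not called in B6, and the glycine transporter Slc6a9 (-0.54 ± 0.11) and the GABA transporter Slc6a11 (-0.43 ± 0.13) were lower in 129.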

How the data were processed

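Total RNA of 12 samples was labelled and hybridised to Affymetrix arrays, and the authors deposited RMA intensities on a linear scale, made by a software version not given in the sources used here. RMA corrects background and gives all arrays one distribution, so a shift shared by most genes would not be seen. Intensities were taken to log2, 64 control probe sets were left out, and 45037 were tested. Array annotation gave 34945 of them 1 gene symbol, 932 several and 9160 none. Group means were fitted with limma 3.58.1 in R 4.3.3 (eBayes, no trend, not robust) for 9 comparisons, each adjusted by Benjamini-Hochberg over all probe sets, and called at 0.05. This fit was first tested on simulated data.

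Groups followed the labels, with 2 arrays each, and this number limits the precision. Members and lists were chosen with earlier results of these data known. Values on every array were given for up to 4 members per role with the largest change after damage, and up to 6 called members per other comparison. Other probe sets of a member were named where their calls were opposite or bore on a stated result, and the rest were counted, which is fewer than the rule set at the start asked for. Alternatives were a replicate block, only the compared arrays, probe sets above the median level, cyclic loess, housekeeping centring, eBayes with trend and robust, the mean of a gene's probe sets, and leaving out each array. Upstream sequences came from RefSeq on GRCm38.p6. Python 3.11.15, pandas 2.3.3 and matplotlib 3.10.9 were used for counts and plots.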

Additional observations from a re-analysis of the deposited data

Results flagged for a closer look

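The 129 change less the B6 change passed the limma test at a second probe set of 5 members. After damage it was 1.02 ± 0.19 (SE, adjusted p 0.0215) at probe set 1426151_a_at of Stx3. With CHIR99021 it was -1.43 ± 0.16 (adjusted p 0.00408) at 1421990_at of Syt1, -1.19 ± 0.19 (adjusted p 0.0158) at 1426151_a_at of Stx3, -1.06 ± 0.17 (adjusted p 0.0154) at 1442863_at of Cacna2d4, -0.97 ± 0.15 (adjusted p 0.0154) at 1418610_at of Slc17a6 and -0.74 ± 0.13 (adjusted p 0.0253) at 1440891_at of Gria4. All 6 values use the vehicle explants of B6, which had the widest 3′ minus 5′ gap for dap and thr but not for every added control RNA. The part of that gap in these values was not tested. The leading probe sets of these genes gave no called interaction.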

How the results depend on the processing

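Numbers here are members called unless stated. In normal retina 5 members differed between strains, against 3 with only the compared arrays, 9 with probe sets above the median level alone, 8 with housekeeping centring and 9 with trend and robust eBayes. With CHIR99021 the 5 became 3 with only the compared arrays and 10 with trend and robust eBayes, and for the inhibitor in B6 the 20 became 13 with only the compared arrays. For the damage interaction the 0 became 3 above the median level and 5 with trend and robust eBayes, and for the inhibitor interaction 2, 1, and 2 with the mean of all probe sets of a gene. Leaving out 1 array gave 3 to 6 members for strain in normal retina, 5 to 11 at 3DIV, 3 to 5 with CHIR99021, 23 to 27 for damage in B6, 24 to 30 in 129, 12 to 20 for the inhibitor in B6, 6 to 15 in 129, and 0 to 1 and 0 to 0 for the interactions, with the 1 found without B6 vehicle replicate 1. The replicate numbers did not pair the arrays, as 0 of 15 pairs of groups had deviations correlated over 0.1 (-0.107 to 0.044). With a replicate block the members called were 5, 10, 4, 27, 29, 18, 12, 0 and 0 in the order above.

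Signs turned in these cases, and the cause was not tested. With the mean of all probe sets the strain difference at 3DIV became 0.41 for Syt1, 0.29 for Stx3, 0.34 for Gria4 and 0.24 for Grin2b, the inhibitor effect in B6 became 0.18 for Syt1, 0.041 for Vamp2, 0.30 for Stx3, 0.18 for Cacna2d4, 0.047 for Gria4 and 0.066 for Dlg4, and the inhibitor interaction of Cacna2d4 became -0.40. Damage in 129 became -0.054 for Homer1 by that mean, and -0.14 for Homer1 and -0.015 for Nlgn1 with housekeeping centring.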
